A study of Mus musculus with 6 samples.

Results

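The 36 genes described here encode the proteins that let calcium into bronchial smooth muscle cells (BSMCs), release it from stores, pump it out again and, through potassium channels, set the membrane voltage. They were chosen by name, by a rule that used no measured value, but with earlier results of these data known. Of these, 33 matched a gene-level probe set and are described here, out of 20239 genes tested. The other 3, Cacnb3, Itpr1 and Cd38, matched no named probe set and were not analysed here. BSMC RNA was measured on 6 whole-transcript arrays, 3 from OVA sensitized mice with acute allergic airway inflammation and 3 from PBS sensitized control mice. All were C57BL/6J mice carrying both αSMA-hrGFP and NG2-DsRed, in which green fluorescence follows the α-smooth muscle actin promoter and red fluorescence marks vascular smooth muscle cells (VSMCs) and pericytes. OVA mice were injected with 50 µg OVA in alum on days 0 and 7, and control mice were given PBS in place of this sensitization. Mice of both groups then breathed nebulized OVA on 5 days between day 14 and day 18, so the groups differ in sensitization and not in airway challenge, and cells were isolated on day 19. The methods describe sorted hrGFP+DsRed- cells, free of CD31+ endothelial and CD45+ blood cells, with RNA of several mice pooled per array, whereas the labels speak of microdissected airway muscle from single animals and give the OVA protocol for every sample. The PBS sensitization of the controls is therefore known from the methods only, as is that the mice were adult.

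A rise of free calcium is the trigger for contraction of airway smooth muscle. Calcium enters through voltage-gated channels, through channels opened by store depletion or by ligands, and is released from the sarcoplasmic reticulum by inositol trisphosphate and ryanodine receptors. Pumps and exchangers remove it, and open potassium channels hold the membrane voltage negative, which keeps voltage-gated channels shut and favours relaxation.

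1 array stood apart. The array OVA 2 had a score of 69.2 on the first principal component, which held 61.3% of the variance, against -24.1 to -9.5 for the other 5 arrays, and its mean correlation with the others was 0.959, against 0.980 to 0.986. It lay above every PBS array for 45.7% of all genes and below every PBS array for 37.7%, and for 5 and 17 of the 33 genes described here. Its deviation from the mean of the other 5 arrays depended on level, with a slope of -0.168 per log2 unit that crossed 0 at 7.05. OVA 2 thus tended to read high for genes at low levels and low for genes at high levels. The methods left out 1 unnamed OVA array as an outlier on principal components, so OVA 1 and OVA 3 were set against PBS 1, PBS 2 and PBS 3, with all 6 arrays given beside them. Levels are log2 values, in which a difference of 1 is a doubling, and the number of arrays limits their precision. P-values measure only the spread between these RNA samples.

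The sorted cells carried their defining RNAs on every array. All 10 smooth muscle markers lay above the array median on all 6 arrays, and Acta2, smooth muscle actin, was at 12.44 and 12.52 on OVA 1 and OVA 3, with 12.09 on OVA 2, against 12.39, 11.87 and 12.13 on PBS 1, PBS 2 and PBS 3. Markers of cells the sort should remove were also present. Ptprc, which encodes CD45, was at 8.09, 8.31 and 6.18 on OVA 1, OVA 3 and OVA 2, against 6.84, 8.10 and 7.77 on the PBS arrays. Pecam1, which encodes CD31, was at 8.48, 8.60 and 6.52, against 8.69, 9.44 and 8.59. Notch3, a receptor of VSMCs and pericytes, was at 9.48, 9.77 and 9.31, against 10.33, 9.41 and 9.62. All 10 fibroblast markers also lay above the array median on all 6 arrays. Their mean was 10.84 to 11.25, against 9.95 to 11.30 for the smooth muscle markers, and on PBS 2 it was 11.18 against 9.95. In such bulk RNA, fewer cells of a type and less RNA per cell cannot be told apart.

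No calcium handling or potassium channel gene passed the false discovery rate (FDR) of 0.25 that the methods used (limma, adjusted over all genes), which 8 genes, 0.0395% of all, did. At an unadjusted p under 0.01 there was 1, Abcc9, lower in OVA, and at an unadjusted p under 0.05 there were 6, with Slc8a1 and P2rx1 higher and Abcc9, Trpc1, Cacna2d1 and Trpm4 lower. Over all genes 1.97% had a p under 0.01, 0.963% higher and 1% lower, and 9.31% a p under 0.05, 4.53% higher and 4.78% lower. The difference was above 0 for 18 genes and below 0 for 15, against 56.3% below 0 over all genes. The median log2 difference, OVA minus PBS, was 0.05, against -0.02 for all genes, and with OVA 2 included it was -0.085, against 0.03. Over all 6 arrays 1 gene had an unadjusted p under 0.01 and 4 a p under 0.05, with 0 at the FDR threshold (limma), where the background was 0.86%, 4.54% and 0.00494%. OVA 1 and OVA 3 did not overlap the PBS arrays for 11 of the 33, 2 higher and 9 lower, where the background was 28.7%, 11.9% higher and 16.8% lower. With OVA 2 there were 8, 1 higher and 7 lower, where the background was 12%, 4.16% higher and 7.83% lower. The 7 were Cacna2d1, Stim1, Trpc1, Trpm4, Itpr2, Atp2a3 and Abcc9, and the 1 was Slc8a1. All 7 had mean levels above 7.05, where OVA 2 tended to read low, whereas the background is over genes of all levels.

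**Figure D1:**
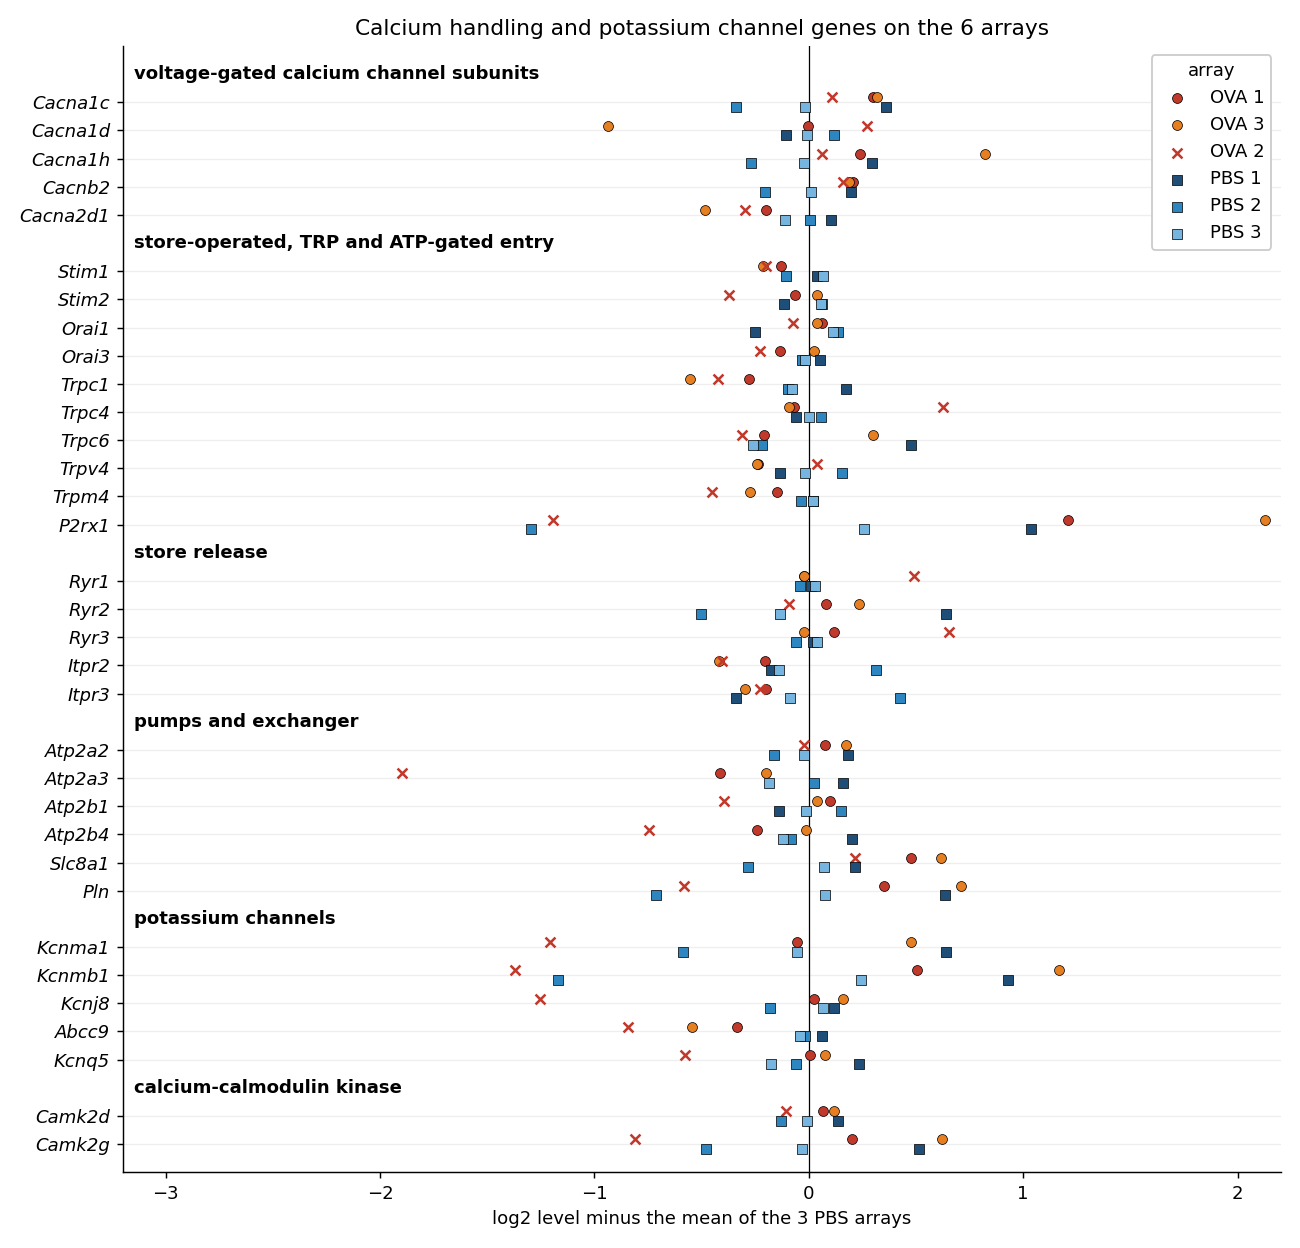
Log2 level of each of the 33 genes on each array minus the mean of the 3 PBS arrays, grouped by role, with OVA arrays as circles and a cross (OVA 2, left out of the main comparison) above PBS arrays as squares. P2rx1 and Kcnmb1 are spread widely over the PBS arrays, whereas for Abcc9 the PBS arrays lie within 0.10 of each other and all OVA arrays lie below them.

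The voltage-gated channels were mixed. Cacna1c, the pore of the L-type channel and the main voltage-gated entry route of smooth muscle, was at 9.77 and 9.79 on OVA 1 and OVA 3, with 9.58 on OVA 2, against 9.83, 9.13 and 9.45 on PBS 1, PBS 2 and PBS 3. The OVA arrays lay inside the PBS range, and the difference of 0.31 (standard error 0.199, 95% interval -0.18 to 0.79) did not pass the test (limma, adjusted p = 0.637). It was 0.49 without PBS 1 and 0.14 without PBS 2. Cacna2d1, an accessory subunit that raises the number of channels at the cell surface, was at 8.88, 8.60 and 8.78 on OVA 1, OVA 3 and OVA 2, against 9.19, 9.09 and 8.97 on the PBS arrays. All OVA arrays were below all PBS arrays, by 21.1% on average for OVA 1 and OVA 3 (log2 difference -0.34, standard error 0.121, limma, adjusted p = 0.512). Without OVA 3 the difference was -0.20.

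The other 3 voltage-gated subunits did not pass the test. Cacna1h, a T-type pore that opens at low voltage, averaged 7.07 ± 0.41 on OVA arrays (SD, n = 2) and 6.54 ± 0.28 on PBS arrays (SD, n = 3), with OVA 3 at 7.36 and OVA 1 at 6.78, inside the PBS range. Cacna1d, an L-type pore of excitable and endocrine cells, averaged 8.37 ± 0.66 on OVA arrays (SD, n = 2) and 8.85 ± 0.11 on PBS arrays (SD, n = 3), and its difference of -0.47 was set by OVA 3, at 7.91, since OVA 1 was at 8.84 and OVA 2 at 9.12. Without OVA 3 it was -0.01. Cacnb2, a cytoplasmic subunit that carries the pore to the membrane, had a difference of 0.20. Over these 5 genes the median difference was 0.20, with 3 higher and 2 lower.

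Of the 10 genes for store-operated, transient receptor potential (TRP) and ATP-gated entry, 7 were lower and 3 higher in OVA, with a median difference of -0.07. On OVA 1 and OVA 3, 5 of the 10 were lower without overlap with the PBS arrays, against 16.8% of all genes. With OVA 2 there were 3 such genes, all at levels where OVA 2 tended to read low, against 7.83% of all genes. Stim1, the sensor that signals an empty store to the plasma membrane, was at 8.30, 8.21 and 8.23 on OVA 1, OVA 3 and OVA 2, against 8.47, 8.32 and 8.50 on PBS 1, PBS 2 and PBS 3. Every OVA array was below every PBS array, but by little, and the difference of -0.17 (standard error 0.0929) missed the threshold (limma, adjusted p = 0.589). Orai1, the pore that this sensor opens, was at 7.21 and 7.19 on OVA 1 and OVA 3, with 7.08 on OVA 2, against 6.90, 7.29 and 7.27. The groups overlapped, and the interval of its difference of 0.05 ran from -0.29 to 0.38 (limma, adjusted p = 0.925). Stim2, a second store sensor, and Orai3, a relative of Orai1, had differences of -0.01 and -0.06.

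Trpc1 encodes a cation channel subunit that has been placed in store-operated entry. Its level was 8.80 and 8.53 on OVA 1 and OVA 3, with 8.66 on OVA 2, against 9.26, 8.99 and 9.00 on PBS 1, PBS 2 and PBS 3. The highest OVA array was below the lowest PBS array, and the level averaged 25.1% lower in OVA (log2 difference -0.42, standard error 0.131, limma, adjusted p = 0.481). With all 6 arrays the difference was also -0.42, at a mean level of 8.92, where OVA 2 tended to read low. Without OVA 3 it was -0.28.

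Trpm4, a calcium-activated channel that passes sodium and so depolarizes the cell, was at 7.09 and 6.96 on OVA 1 and OVA 3, with 6.78 on OVA 2, against 7.26, 7.20 and 7.26 on PBS 1, PBS 2 and PBS 3. All OVA arrays were again below all PBS arrays, by 13.6% on average for OVA 1 and OVA 3 (log2 difference -0.21, standard error 0.0855, limma, adjusted p = 0.533). Trpv4, which responds to osmotic and mechanical stimuli, was at 6.00 and 5.99 on OVA 1 and OVA 3, below the 6.10, 6.39 and 6.22 of the PBS arrays, but OVA 2 was at 6.27, inside their range. Trpc4 (5.18, 5.15 and 5.87 on OVA 1, OVA 3 and OVA 2, against 5.19, 5.30 and 5.24 on PBS arrays) was under the percentile 25 of genes by level, and its difference of -0.08 became 0.15 with OVA 2. Trpc6, which diacylglycerol opens downstream of receptors, had a difference of 0.05 with an interval of -0.60 to 0.69.

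P2rx1, the channel through which extracellular ATP admits calcium and sodium, had the largest difference of the 33 genes on OVA 1 and OVA 3 and the widest range over the PBS arrays. It was at 9.71 and 10.63 on OVA 1 and OVA 3, with 7.31 on OVA 2, against 9.54, 7.21 and 8.76 on PBS 1, PBS 2 and PBS 3. OVA 1 and OVA 3 were above every PBS array, OVA 1 only just, and OVA 2 was near the lowest PBS array. The average of OVA 1 and OVA 3 was 3.18-fold that of PBS (log2 difference 1.67, standard error 0.669, interval 0.04 to 3.30, limma, adjusted p = 0.532). Without PBS 2 the difference was 1.02, and over all 6 arrays it was 0.72.

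The promoter sequences of these 2 entry genes are shown because their levels differed in opposite directions. Each is the 200 bases before the RefSeq start in GRCm38.p6, written along the coding strand, with any GC box (GGGCGG or CCGCCC, either strand) in capitals. The Trpc1 window is chr9:95750349-95750548 on the minus strand and the P2rx1 window chr11:72998945-72999144 on the plus strand. Both windows run partly into the RefSeq span of the gene, which ends at 95750386 for Trpc1 and begins at 72999056 for P2rx1.
Trpc1: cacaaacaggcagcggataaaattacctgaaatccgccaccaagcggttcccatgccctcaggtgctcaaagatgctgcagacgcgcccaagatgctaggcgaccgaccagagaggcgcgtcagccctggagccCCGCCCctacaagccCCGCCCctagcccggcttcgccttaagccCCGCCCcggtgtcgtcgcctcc
P2rx1: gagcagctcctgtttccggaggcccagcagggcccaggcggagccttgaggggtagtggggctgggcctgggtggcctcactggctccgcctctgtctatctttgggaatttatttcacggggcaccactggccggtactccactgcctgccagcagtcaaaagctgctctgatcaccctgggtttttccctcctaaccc
Trpc1 had 3 GC boxes, the motif that factors of the Sp family bind, and P2rx1 had none. Their G and C content was 65.0% and 62.0%. Motif matches are a description of the letters only.

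None of the 5 store release genes analysed had an unadjusted p under 0.05, and their median difference was -0.02, or 0.07 over all 6 arrays. Itpr1 and Cd38, which also belong to this role, were not analysed. Ryr2, a ryanodine receptor that calcium itself opens, was at 6.70 and 6.85 on OVA 1 and OVA 3, with 6.52 on OVA 2, against 7.26, 6.11 and 6.48 on PBS 1, PBS 2 and PBS 3. All OVA arrays lay inside the PBS range, which spanned 1.15, and the difference of 0.16 had an interval of -0.61 to 0.93 (limma, adjusted p = 0.889). Ryr1 and Ryr3, the other ryanodine receptors, had differences of -0.02 and 0.05.

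Itpr2, an inositol trisphosphate receptor that opens after Gq-coupled receptors fire, was at 7.90 and 7.69 on OVA 1 and OVA 3, with 7.70 on OVA 2, against 7.94, 8.43 and 7.97 on PBS 1, PBS 2 and PBS 3. The groups did not overlap, but OVA 1 and PBS 1 were close, and the difference of -0.31 (standard error 0.171) did not pass the test (limma, adjusted p = 0.590). Without PBS 2 it was -0.16. Itpr3, a further receptor of that family, was at 7.39, 7.29 and 7.36 on OVA 1, OVA 3 and OVA 2, against 7.25, 8.01 and 7.50 on the PBS arrays, with overlapping groups and a difference of -0.25, or -0.04 without PBS 2. The mean of the 10 endothelial markers was 8.50 and 8.55 on OVA 1 and OVA 3, against 8.63, 9.42 and 8.66 on PBS 1, PBS 2 and PBS 3. Itpr2 and Itpr3 were also highest on PBS 2. On OVA 2 the marker mean was lowest, at 7.09, whereas both receptors were close to their levels on OVA 3. The part of endothelial cells in the receptors' levels was not tested.

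Among the pumps, the exchanger and their regulator, Slc8a1 had the smallest p, and the median difference of the 6 genes was 0.10, or -0.0049 over all 6 arrays. It encodes the sodium-calcium exchanger, which extrudes calcium in exchange for sodium and can run in reverse when the cell is depolarized. Its level was 7.55 and 7.69 on OVA 1 and OVA 3, with 7.29 on OVA 2, against 7.29, 6.79 and 7.14 on PBS 1, PBS 2 and PBS 3. OVA 1 and OVA 3 were above every PBS array, and OVA 2 exceeded PBS 1 by less than the rounding shown. The average of OVA 1 and OVA 3 was 46.1% higher than that of PBS (log2 difference 0.55, standard error 0.159, interval 0.16 to 0.93, limma, adjusted p = 0.480). Over all 6 arrays the difference was 0.44. Weighting arrays by their quality gave OVA 1, OVA 3 and OVA 2 weights of 3.30, 1.05 and 0.0852, so OVA 1 counted most. In that fit the adjusted p of Slc8a1 was 0.232 (limma), under the FDR threshold that 2.78% of all genes passed.

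Atp2a2, the SERCA pump that refills the store and the major one of smooth muscle, was at 11.16 and 11.26 on OVA 1 and OVA 3, with 11.06 on OVA 2, against 11.27, 10.92 and 11.06 on PBS 1, PBS 2 and PBS 3. The groups overlapped fully, and the interval of the difference of 0.13 was -0.17 to 0.42 (limma, adjusted p = 0.748). Pln, phospholamban, which restrains that pump, was at 6.56 and 6.91 on OVA 1 and OVA 3, with 5.62 on OVA 2, against 6.84, 5.49 and 6.28. Here too the groups overlapped, and the difference of 0.53 had a wide interval of -0.38 to 1.44 (limma, adjusted p = 0.665). The plasma membrane pumps Atp2b1 and Atp2b4, which export calcium at the expense of ATP, had differences of 0.07 and -0.13.

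Atp2a3, a SERCA pump best known from blood, endothelial and epithelial cells, was at 7.89 and 8.11 on OVA 1 and OVA 3, with 6.41 on OVA 2, against 8.47, 8.33 and 8.12 on PBS 1, PBS 2 and PBS 3. No OVA array reached the lowest PBS array, although OVA 3 came within 0.02 of it, and the difference was -0.31 (standard error 0.131, limma, adjusted p = 0.542). With OVA 2 it was -0.84. In the same arrays 9 of 10 endothelial markers and 10 of 12 epithelial markers were lower in OVA 1 and OVA 3 than in PBS, with list means of 8.50 to 8.55 against 8.63 to 9.42 and of 7.46 to 7.59 against 7.69 to 8.06, whereas all 10 leukocyte markers were higher, with 8.78 to 9.12 against 7.66 to 8.67. On OVA 2 these list means were 7.09, 7.04 and 7.05. Their part in the level of Atp2a3 was not tested.

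**Figure D2:**
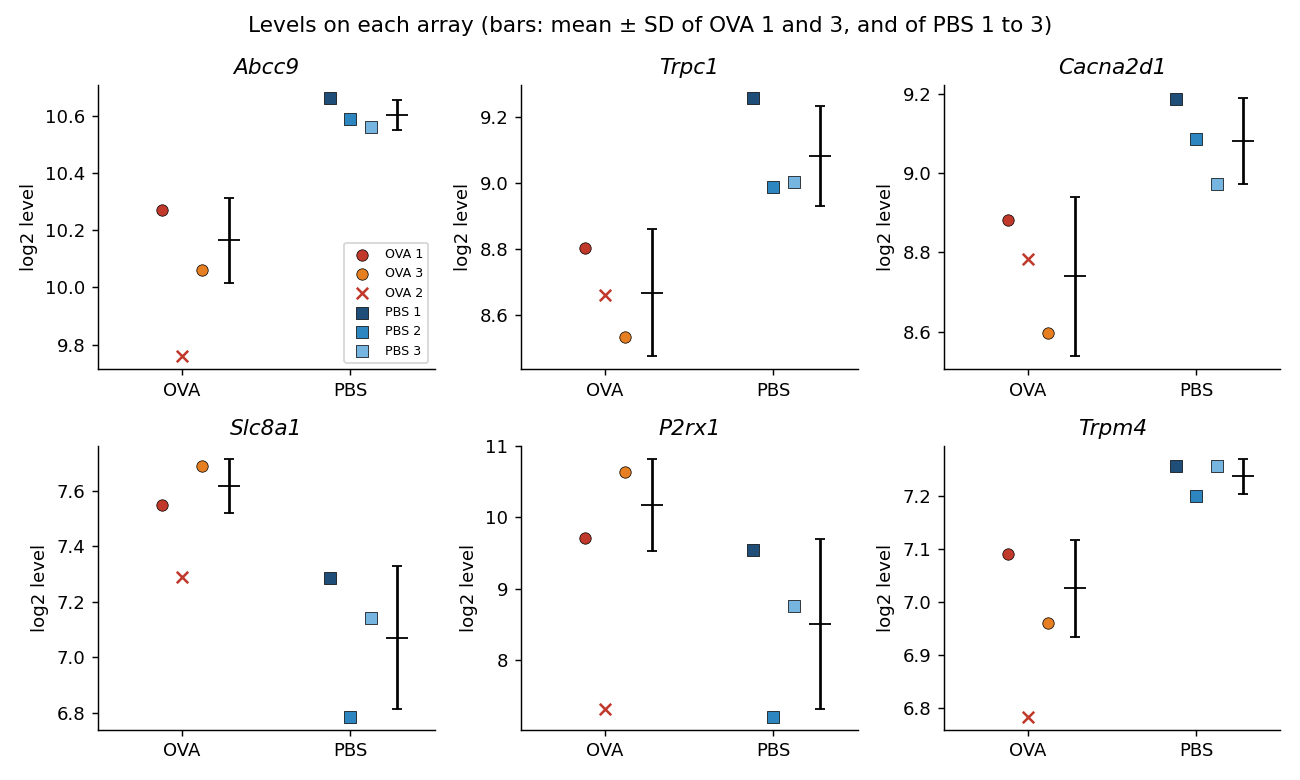
Log2 level on each array of the 6 genes with an unadjusted p under 0.05, OVA arrays to the left of PBS arrays, with bars for the mean ± SD of OVA 1 and OVA 3 and of the 3 PBS arrays. Abcc9, Trpc1, Cacna2d1 and Trpm4 lie below PBS on all 3 OVA arrays, whereas OVA 2, shown as a cross, parts from OVA 1 and OVA 3 in P2rx1.

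The potassium channel genes held the smallest p of the 33, that of Abcc9. Of these 5 genes, 4 were higher on OVA 1 and OVA 3 than in PBS, with a median difference of 0.09, but over all 6 arrays 1 was higher and 4 lower, with a median of -0.26, and leaving out PBS 2 gave 2 higher and 3 lower. Abcc9 encodes the sulfonylurea receptor of the vascular type of ATP-sensitive potassium channel, which opens when cellular ATP is low and relaxes smooth muscle, and Kcnj8 encodes the pore of that channel. Abcc9 was at 10.27 and 10.06 on OVA 1 and OVA 3, with 9.76 on OVA 2, against 10.66, 10.59 and 10.56 on PBS 1, PBS 2 and PBS 3. All 3 OVA arrays lay below the PBS arrays, which spanned 0.10. The average of OVA 1 and OVA 3 was 26.3% lower than that of PBS (log2 difference -0.44, standard error 0.0981, interval -0.68 to -0.20, limma, adjusted p = 0.480). With all 6 arrays the difference was -0.57, but Abcc9 had a mean level of 10.43, where OVA 2 tended to read low. With weighted arrays the adjusted p was 0.213 (limma), under the FDR threshold that 2.78% of all genes passed in that fit. The unadjusted p was under 0.01 over all 6 arrays and without OVA 1, but not without OVA 3 or without any 1 of the PBS arrays.

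For Kcnj8 the groups were not separated in this way. It was at 10.52 and 10.66 on OVA 1 and OVA 3, with 9.24 on OVA 2, against 10.61, 10.32 and 10.56 on PBS 1, PBS 2 and PBS 3. OVA 1 and OVA 3 overlapped the PBS arrays, with a difference of 0.09 (interval -0.20 to 0.38, limma, adjusted p = 0.815), and OVA 2 was far below them, which turned the difference to -0.36 over all 6 arrays. Both encode subunits of 1 channel, and Abcc9 was set against Kcnj8 with its small p known. The difference of Abcc9 minus that of Kcnj8 was -0.53 on OVA 1 and OVA 3 (exact two-sided permutation p = 0.1). Over all 6 arrays it was -0.22 (exact permutation p = 0.5). Neither 5 nor 6 arrays allow a p below 0.1 in this test, so it cannot decide whether the subunits differed.

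Both subunits are also known from pericytes and VSMCs, which the gate should remove. Of 10 markers of those cells, 4 were lower and 6 higher in OVA 1 and OVA 3 than in PBS, and the list mean was 8.88 to 9.23 on OVA 1 and OVA 3, with 8.40 on OVA 2, against 8.46 to 9.21 on PBS arrays. The part of these cells in the level of Abcc9 was not tested.

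Abcc9 and Kcnj8 are neighbours on chromosome 6 with no other protein-coding gene between them in RefSeq, both on the minus strand, and each has its own promoter. Their sequences are shown because the genes lie side by side and encode subunits of 1 channel. The windows, again of 200 bases before the RefSeq start with GC boxes in capitals, are chr6:142702275-142702474 for Abcc9 and chr6:142571615-142571814 for Kcnj8 (GRCm38.p6). That of Slc8a1, added as the exchanger with the higher level, is chr17:81738388-81738587 on the minus strand. The RefSeq span of Abcc9 reaches 142702766, so its window lies inside the gene, whereas those of Kcnj8 and Slc8a1 lie next to theirs.
Abcc9: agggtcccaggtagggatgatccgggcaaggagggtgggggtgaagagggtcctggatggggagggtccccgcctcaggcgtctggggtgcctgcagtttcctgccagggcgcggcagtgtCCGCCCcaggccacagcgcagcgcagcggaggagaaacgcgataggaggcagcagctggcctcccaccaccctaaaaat
Kcnj8: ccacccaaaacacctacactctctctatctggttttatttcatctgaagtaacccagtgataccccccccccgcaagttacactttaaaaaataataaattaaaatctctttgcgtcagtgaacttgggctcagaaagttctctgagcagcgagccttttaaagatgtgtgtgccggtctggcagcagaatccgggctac
Slc8a1: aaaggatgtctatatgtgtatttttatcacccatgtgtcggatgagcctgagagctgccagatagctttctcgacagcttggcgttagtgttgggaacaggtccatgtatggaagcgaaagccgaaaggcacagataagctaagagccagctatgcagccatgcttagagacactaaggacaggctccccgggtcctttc
Abcc9 had 1 GC box and Kcnj8 and Slc8a1 had none, and their G and C content was 67.5%, 45.0% and 49.5%. Windows were given for 28 of the 33 genes, 34 windows in all since some genes have several starts. A GC box was in 20 of these 34, or 58.8%, and in 31% of all 32851 windows of that length. A TATA box (TATAAA, or TTTATA on the other strand) was in 1, that of Cacna1d, and in 9.96% of all windows, and a CArG box, which serum response factor binds, was in 1, that of Trpc6, and in 1.18% of all. By gene, 19 of the 28 had a GC box. These included Abcc9, Trpc1 and Cacna2d1 of the 4 lower genes with an unadjusted p under 0.05. A link of GC boxes with direction was not tested.

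The large-conductance potassium channel, which calcium opens and which limits contraction, varied widely within both groups. Kcnma1, its pore, was at 7.71 and 8.24 on OVA 1 and OVA 3, with 6.55 on OVA 2, against 8.40, 7.17 and 7.71 on PBS 1, PBS 2 and PBS 3. Kcnmb1, an accessory subunit that raises the channel's sensitivity to calcium, was at 9.97 and 10.64 on OVA 1 and OVA 3, with 8.10 on OVA 2, against 10.40, 8.30 and 9.71. In both genes the groups overlapped, PBS 1 was high and PBS 2 low. The differences were 0.21 (interval -0.66 to 1.08, limma, adjusted p = 0.863) and 0.84 (interval -0.60 to 2.27, limma, adjusted p = 0.665), and with OVA 2 they were -0.26 and 0.10. Kcnq5, a slowly activating voltage-gated channel, had a difference of 0.04 (interval -0.29 to 0.37).

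Camk2d and Camk2g encode forms of the kinase that calcium-calmodulin activates. Camk2g was at 8.94 and 9.36 on OVA 1 and OVA 3, with 7.93 on OVA 2, against 9.25, 8.26 and 8.71 on PBS 1, PBS 2 and PBS 3. The groups overlapped, and the differences were 0.41 for Camk2g and 0.09 for Camk2d (limma, adjusted p = 0.668 and 0.783). Over all 6 arrays that of Camk2g was 0.003, and without PBS 2 it was 0.17.

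**Figure D3:**
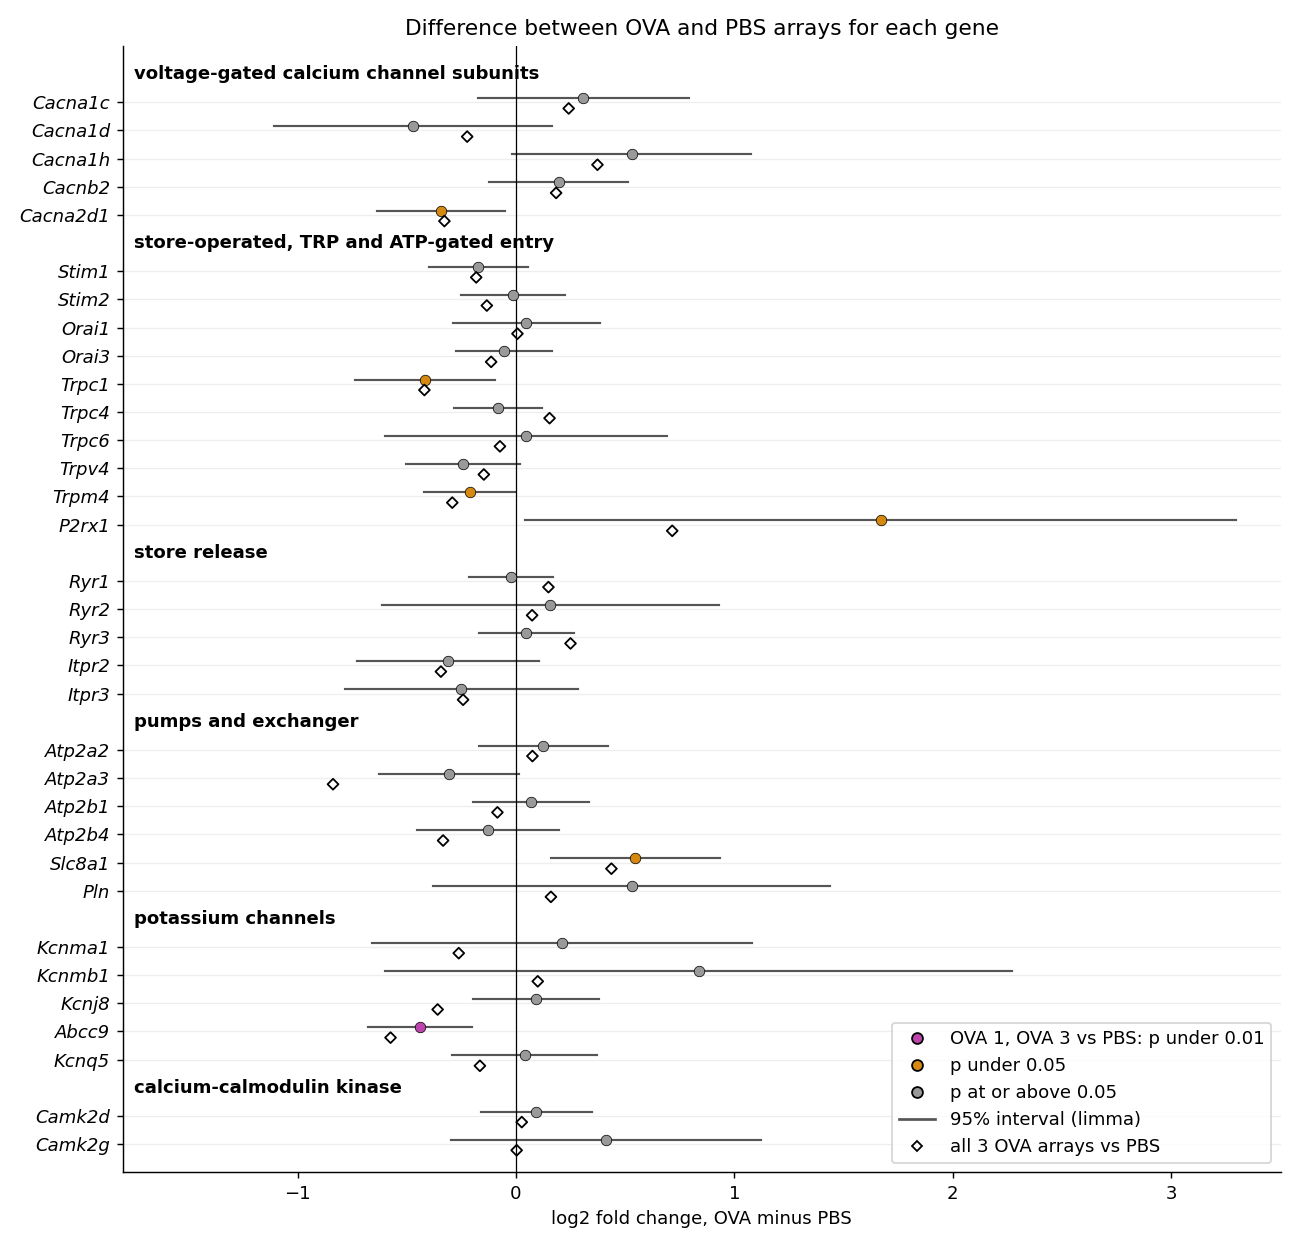
Log2 difference, OVA minus PBS, for each gene with its 95% interval (filled circles, OVA 1 and OVA 3 against 3 PBS arrays) and over all 6 arrays (open diamonds). Only 6 intervals leave out 0, and for Atp2a3, P2rx1, Kcnma1, Kcnmb1 and Kcnj8 the diamond lies well to the left of the circle.

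The spread within the PBS group was itself uneven. The range over the 3 PBS arrays was above 1 for 5 of the 33 genes, P2rx1 (2.33), Kcnmb1 (2.10), Pln (1.35), Kcnma1 (1.23) and Ryr2 (1.15), against 2.31% of all genes, and its median was 0.344, against 0.206 for all genes. All 10 smooth muscle markers were lowest on PBS 2 and highest on PBS 1, with a mean of 9.95, 10.59 and 11.05 on PBS 2, PBS 3 and PBS 1. Leaving out PBS 2 took the log2 difference to 0.25 for Kcnmb1, 0.17 for Pln, -0.08 for Kcnma1 and -0.09 for Ryr2, and leaving out PBS 1 took it to 1.30, 0.85, 0.53 and 0.48 for these genes. The same order of the PBS arrays was found in 15 of the 33 genes, against 17.3% of all genes, and the opposite order in 8, against 15.2%. The marker order held for 3 of 5 potassium channel genes and 3 of 5 voltage-gated subunits, but for 3 of 10 other entry genes and 1 of 5 store release genes.

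The smooth muscle marker mean was also higher on OVA 1 and OVA 3, at 11.01 and 11.30, than the average of the PBS arrays, by 0.63, and was 10.32 on OVA 2. Centring on this mean lowers the difference of every gene by the same 0.63, which puts 98.2% of all genes below 0. It gave -0.08 for Slc8a1, 1.04 for P2rx1 and -1.07 for Abcc9, beside a median of -0.65 for all genes. The part of smooth muscle content in the levels of Slc8a1 and P2rx1 was not tested.

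**Figure D4:**
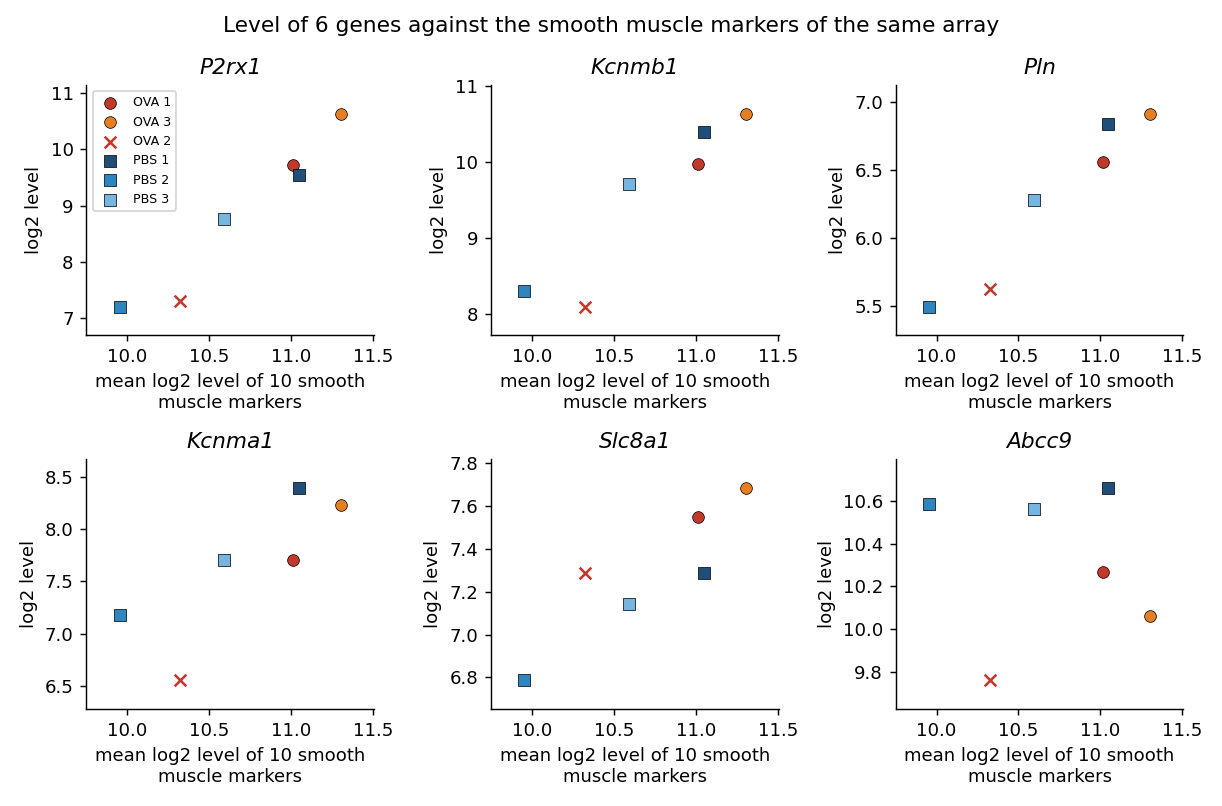
Log2 level of 6 genes on each array (vertical) against the mean log2 level of the 10 smooth muscle markers of the same array (horizontal), with OVA arrays as circles and a cross and PBS arrays as squares. P2rx1, Kcnmb1, Pln and Kcnma1 follow the marker mean over the PBS arrays, from PBS 2 at 9.95 to PBS 1 at 11.05, whereas Abcc9 is nearly level over them and lower on all OVA arrays.

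The other genes of these pathways, listed by family, numbered 126. At an unadjusted p under 0.01 there were 1 higher and 3 lower, against 1.97% of all genes, and at an unadjusted p under 0.05 there were 2 higher and 14 lower, of which 9 lower ones were potassium channel genes, against 4.53% higher and 4.78% lower over all genes. None passed an FDR of 0.25 (limma). Over all 6 arrays the count at an unadjusted p under 0.05 was 0 higher and 7 lower, 4 of them potassium channel genes, against 4.54% of all genes. Of the 126, 46 were higher and 80 lower, with a median difference of -0.06, against 56.3% of all genes below 0, and over all 6 arrays this turned to 80 higher and 46 lower, with a median of 0.06. Cacna1g, a T-type pore like Cacna1h, was at 7.45 and 7.42 on OVA 1 and OVA 3, with 7.44 on OVA 2, against 8.14, 7.92 and 8.09 on PBS 1, PBS 2 and PBS 3. The 3 OVA arrays lay close together and well below PBS, by 34.5% (log2 difference -0.61, standard error 0.0974, limma, adjusted p = 0.413). With weighted arrays the adjusted p was 0.0842 (limma), in a fit where 2.78% of all genes passed an FDR of 0.25. Trpv2, a cation channel of macrophages and muscle, was at 8.43 and 8.92 on OVA 1 and OVA 3 but 7.23 on OVA 2, against 7.75, 7.46 and 7.80 on the PBS arrays (log2 difference 1.00, limma adjusted p = 0.425). The macrophage marker mean was 8.00 and 8.28 on OVA 1 and OVA 3, with 6.90 on OVA 2, against 6.92, 7.74 and 7.86, and its part in the level of Trpv2 was not tested. Itprid2, named for a domain that binds inositol trisphosphate receptors, and Kcne2, an accessory potassium channel subunit, had differences of -0.34 and -0.30 (limma, adjusted p = 0.480 for both).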

How the data were processed

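BSMC RNA was amplified, labelled with biotin and hybridised to Affymetrix Mouse Gene arrays. The authors deposited log2 levels per gene-level probe set, summarized by RMA for the 6 arrays together, which were used as deposited. The genome build is not given in the sources used here. RMA is meant to equalize the arrays, so a shift common to most genes is largely removed. The deposited levels were still not equal in distribution. The quartiles of OVA 2 were 5.71 and 7.95, against 5.25 to 5.35 and 8.24 to 8.29 on the other arrays. The table held 21225 probe sets, and the 20239 with a single gene symbol entered the tests, while 986 without a name were left out. Groups came from the sample titles. OVA minus PBS was tested by moderated statistics (R 4.3.3, limma 3.58.1 with lmFit and eBayes, statmod 1.5.0), two-sided, with Benjamini-Hochberg adjustment over all genes tested and no filter. The OVA array with the largest absolute score on the first principal component, OVA 2, was left out of the main comparison.

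The genes, lists and alternatives were chosen with earlier results of these data known. Levels on each array were given for genes at an unadjusted p under 0.05 and for those that define a role, and other pathway genes were named at an unadjusted p under 0.01. Itpr2, Itpr3, Atp2a3, Camk2g, Trpv4 and Trpc4 were described after their values were seen. Results were recomputed with all 6 arrays, with array weights over the 6 (estimated gene by gene, which was chosen after seeing the data), with each array left out, with low genes (under the percentile 25) left out, after quantile normalization, with centring on the array median or on smooth muscle markers, with an intensity trend with robust variance, and the replicate number as a block. The test was checked on simulated data. Promoters are from RefSeq (GRCm38.p6).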

Additional observations from a re-analysis of the deposited data

How the results depend on the processing

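Of the 33 genes 24 kept the sign of their difference when any 1 array was left out, and 21 kept it in the 13 alternatives other than centring on smooth muscle markers, which shifts every gene alike. Abcc9 ranged over -1.07 to -0.33 and P2rx1 over 0.72 to 2.19. Genes at an unadjusted p under 0.01 numbered 1, and 2 with array weights (3.67% of all genes), 0 when centred on smooth muscle markers and 0 to 2 with 1 array left out. At an unadjusted p under 0.05 there were 6, and 1 to 12 with 1 array left out, 1 without OVA 3 (3.43% of all genes) and 12 without PBS 1 (9 higher and 3 lower, 8.58% of all genes). At an FDR under 0.25 (limma) there were 0, and 2 with array weights (2.78% of all genes). The median log2 difference was 0.05, but -0.085 with all 6 arrays and -0.58 when centred on smooth muscle markers, where 98.2% of all genes lay below 0. Of the other pathway genes 4 had a p under 0.01, against 2 with all 6 arrays, 2 when centred on smooth muscle markers and 2 to 6 with 1 array left out.

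Over all 6 arrays, deviations from the group mean correlated by -0.11, -0.04 and 0.01 between arrays of equal replicate number. The OVA group mean here includes the outlying OVA 2, so these values cannot decide whether the arrays were paired. With the replicate number as a block, calcium handling and potassium channel genes at an unadjusted p under 0.01 numbered 0, and 0 in all 6 arrays, where the median was -0.085, and other pathway genes numbered 2, and 1 in all 6 arrays. The causes were not tested. The number of arrays, 2 against 3, limits what can be shown.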
